A study of Mus musculus with 4 samples.

Results

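The 8 genes described here encode heavy chains of the mouse major histocompatibility complex (MHC) class I. They were taken by name from the H2 genes of a deposited table of transcript abundances, and all 8 were among the 22594 genes that the table held once transcripts were summed per gene. H2-K1 and H2-D1 are classical class I genes, and H2-Q4, H2-Q6, H2-Q7, H2-T22, H2-T23 and H2-M3 are nonclassical. RNA came from 2 mouse cell lines labelled as endometrial cancer, MSH2KO21B with 2 libraries and MECPK with 2 libraries. The labels give a tumour origin in the uterus for both. No source used here says how each line was made, which genotype and strain it has, whether it is 1 clone, or whether it was treated. The line names serve only as labels, and every difference below is MSH2KO21B minus MECPK.

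A class I molecule is a heavy chain held together with beta-2 microglobulin and usually a short peptide. Classical molecules are made by nearly all nucleated cells and show peptides from inside the cell to CD8+ T cells. Nonclassical molecules are mostly less abundant, less variable between strains and more specialised. Interferons raise the transcription of many class I genes through a compact promoter with binding elements for NF-kappa B, interferon regulatory factors (IRF), and a complex of RFX, CREB/ATF and NF-Y factors that is joined by the coactivator Nlrc5.

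The promoters are shown because these textbook elements can be read in them and because the 8 genes differed between the lines by very unequal amounts. All 8 genes matched the RefSeq promoter table of GRCm38.p6, and the 200 bases before the RefSeq start of 6 of them are printed 5′ to 3′ on the gene's own strand. They stand for the classical genes (H2-K1, H2-D1), the genes with the largest differences (H2-Q7, H2-Q4, H2-T23) and the gene with the smallest (H2-M3). Capitals mark matches, on either strand, to GGGGATTCC (kappa B), GAANNGAAA (IRF), TGACG (letters of the X2 box bound by CREB/ATF) and CCAAT (bound by NF-Y). No matches overlapped. H2-K1 covers chr17:34000348-34000547 on the minus strand, H2-D1 chr17:35262894-35263093 on the plus strand, H2-Q4 chr17:35379417-35379616 on the plus strand, H2-Q7 chr17:35438955-35439154 on the plus strand, H2-T23 chr17:36032702-36032901 on the minus strand and H2-M3 chr17:37270034-37270233 on the plus strand.
H2-K1: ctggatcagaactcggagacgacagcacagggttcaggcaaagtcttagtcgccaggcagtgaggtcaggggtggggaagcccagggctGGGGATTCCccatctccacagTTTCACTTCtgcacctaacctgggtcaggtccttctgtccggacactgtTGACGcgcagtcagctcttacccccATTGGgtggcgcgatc
H2-D1: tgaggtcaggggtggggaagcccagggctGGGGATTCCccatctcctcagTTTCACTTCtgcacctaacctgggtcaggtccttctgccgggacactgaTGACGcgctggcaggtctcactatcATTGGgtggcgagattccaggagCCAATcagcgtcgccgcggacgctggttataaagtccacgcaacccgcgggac
H2-Q4: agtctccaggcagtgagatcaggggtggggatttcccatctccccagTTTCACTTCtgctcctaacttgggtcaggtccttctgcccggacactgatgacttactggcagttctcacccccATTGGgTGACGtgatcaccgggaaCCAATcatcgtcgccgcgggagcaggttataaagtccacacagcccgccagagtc
H2-Q7: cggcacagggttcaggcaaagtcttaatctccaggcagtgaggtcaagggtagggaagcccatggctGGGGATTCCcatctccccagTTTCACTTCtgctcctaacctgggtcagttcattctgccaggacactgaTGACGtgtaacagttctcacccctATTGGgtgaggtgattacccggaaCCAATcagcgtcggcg
H2-T23: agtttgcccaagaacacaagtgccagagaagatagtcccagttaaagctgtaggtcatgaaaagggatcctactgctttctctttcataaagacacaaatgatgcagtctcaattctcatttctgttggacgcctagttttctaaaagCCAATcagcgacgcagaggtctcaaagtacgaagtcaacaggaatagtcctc
H2-M3: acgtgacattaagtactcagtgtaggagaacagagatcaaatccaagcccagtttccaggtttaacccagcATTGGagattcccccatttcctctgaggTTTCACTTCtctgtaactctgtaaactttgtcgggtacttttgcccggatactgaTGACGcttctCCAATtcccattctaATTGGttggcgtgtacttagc

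H2-K1, H2-D1 and H2-Q7 held all 4 elements, in the order kappa B, IRF, X2 and CCAAT toward the start. Of all 32851 promoters in the table, 0.0122% held all 4 in a window of the same length. That is 4 promoters, these 3 among them, so the share mostly counts these genes themselves. The 8 genes were not left out of any share of all promoters given here. The kappa B letters, searched in that exact form only, were in 4 of the 8 promoters (H2-K1, H2-D1, H2-Q6 and H2-Q7) and in 0.155% of all promoters. The H2-Q4 window holds the close form ggggatttcc shortly before its IRF match, which the search did not count. The IRF letters were in 6 of 8 and in 5.0% of all, and the X2 letters were in 6 of 8 and in 15.7% of all. In H2-Q4 the X2 letters lay 73 to 69 bases before the start, past the CCAAT match at 79 to 75. In H2-T22 the X2 letters lay at 22 to 18, past both CCAAT matches. Neither kept the order above, so either may not be the X2 box. CCAAT was in 8 of 8 and in 29.3% of all. The X2 letters did not occur in the H2-Q6 and H2-T23 windows, and the exact IRF letters did not occur in those of H2-T22 and H2-T23. Those windows hold the close forms tttcactttc (H2-T22) and tttctctttc (H2-T23), which the search did not count. The RefSeq start lay 364 bases from the GENCODE start of the most abundant transcript in H2-D1 and 154 bases from it in H2-T23, so those windows depend on the start chosen. In the other 6 genes the starts were 0 to 27 bases apart. H2-K1 had 2 RefSeq starts, and the 1 nearest that GENCODE start was used. Its window therefore also depends on the start chosen. A match describes letters only, a missing match does not show that an element is absent, and no binding was measured.

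All 4 libraries held between 10775 and 11478 genes at 1 TPM or more. TPM is the share of a library that a transcript takes once its length is allowed for, so levels of different genes can be compared within a library, but it keeps no depth and a gene listed at 0 has no detection limit here. A gene entered the limma fit on log2(TPM + 1) if 2 or more libraries reached 1 TPM, and p-values were adjusted by Benjamini-Hochberg over all 11921 genes tested. The lines differed widely: 76.2% of the genes tested were called at an adjusted p under 0.05, and 46.6% were higher in MSH2KO21B and 29.7% lower. Of the called genes, 61.1% were higher. That share was 48.1% with quantile normalization and 48.9% with median-ratio scaling. The median difference of all genes was 0.19 on the log2 scale as deposited, -0.03 with quantile normalization and -0.01 with median-ratio scaling. A call by itself therefore says little about a gene here, and the sizes below are to be read against that median. The labels do not say whether the libraries of a line came from separate cultures, and the p-values rest on the spread between 2 samples of a line, which could be technical alone. In bulk samples, fewer cells of a type and less RNA per cell cannot be told apart.

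All 8 heavy chain genes passed the filter, and all 8 were higher in both MSH2KO21B libraries than in either MECPK library. H2-Q6 and H2-Q7 passed it only through the MSH2KO21B libraries and so had to differ, so counts and medians over the 8 are given only as a description. The other 6 reached 1 TPM in all 4 libraries. Among all genes tested, 88.9% did not overlap between the lines, and 53.7% did not overlap and were higher in MSH2KO21B. The 8 differences ran from 0.69 to 5.50 on the log2(TPM + 1) scale with a median of 1.68, against 0.19 over all genes tested. Of the 8, 7 differed by more than 1, which 18.9% of all genes tested did while called higher. Limma called all 8 higher and 0 lower (0 lower also at an unadjusted p under 0.05), and H2-Q6 and H2-Q7 add nothing to that count.

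**Figure D1:**
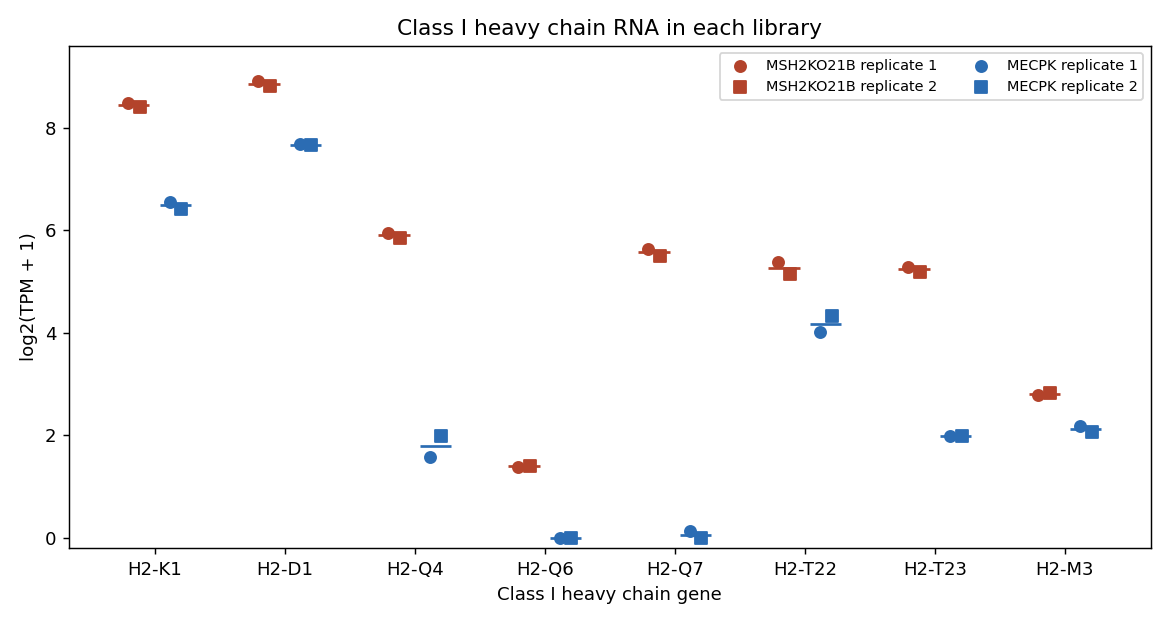
Level of each heavy chain gene on the log2(TPM + 1) scale in the 2 MSH2KO21B libraries (red) and the 2 MECPK libraries (blue), with a horizontal line at the mean of each line. H2-K1 and H2-D1 lie highest in every library, while H2-Q7 and H2-Q6 lie at or near 0 in MECPK.

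H2-D1 and H2-K1, the classical genes, supplied most class I heavy chain RNA in each library. H2-D1 (ENSMUSG00000073411.11, GRCm38 chromosome 17, 35262730 to 35267499, plus strand) had 481 and 448 TPM in MSH2KO21B, against 205 and 201 TPM in MECPK. Its means of 464 ± 23.6 TPM in MSH2KO21B and 203 ± 2.85 TPM in MECPK (SD, n = 2 each) differ by a factor of 2.29. The gap between the lines was many times the gap between replicates. On the log2 scale the difference was 1.19 (SE 0.05, 95% interval 1.04 to 1.33, limma adjusted p = 7.94e-05), and 15.4% of all genes tested had a larger one.

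H2-K1 (ENSMUSG00000061232.16, chromosome 17, 33996017 to 34000347, minus strand) had 359.9 and 338 TPM in MSH2KO21B, against 93.3 and 84.8 TPM in MECPK. It averaged 349 ± 15.2 TPM in MSH2KO21B and 89.1 ± 6.0 TPM in MECPK (SD, n = 2 each), a ratio of 3.92. The log2 difference was 1.96 (SE 0.07, 95% interval 1.78 to 2.14, limma adjusted p = 3.84e-05), and the intervals of H2-K1 and H2-D1 do not overlap. By abundance H2-K1 ranked 443 and 460 among all genes in the MSH2KO21B libraries, against 1597 and 1756 in the MECPK libraries. H2-D1 ranked 337 and 362 in MSH2KO21B, against 718 and 738 in MECPK, so it was the more abundant of the pair in all 4 libraries.

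The genes of the Q region had low or no RNA in MECPK and moderate levels in MSH2KO21B, apart from H2-Q6. H2-Q4 (ENSMUSG00000035929.11, chromosome 17, 35379617 to 35385290, plus strand) had 61.2 and 56.5 TPM in MSH2KO21B, against 1.99 and 3.0 TPM in MECPK. Its means were 58.8 ± 3.34 TPM in MSH2KO21B and 2.49 ± 0.71 TPM in MECPK (SD, n = 2 each), a ratio of 23.6. The lines stood far apart, and the log2 difference was 4.11 (SE 0.16, 95% interval 3.69 to 4.53, limma adjusted p = 5.05e-05). Only 1.90% of all genes tested had a larger difference.

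H2-Q7 encodes a Qa-2 antigen, which is anchored to the membrane by a lipid. H2-Q7 (ENSMUSG00000060550.16, chromosome 17, 35439155 to 35443773, plus strand) had 48.6 and 44.5 TPM in MSH2KO21B, against 0.098 and 0 TPM in MECPK. Since 1 MECPK library lists it at 0, no ratio is given. The log2 difference of 5.50 was the largest of the 8, and 0.847% of all genes tested had a larger one. No p is given for it, since the filter fixed its direction. With a pseudocount of 0.1 in place of 1 it was 8.37, which shows how far a difference from near 0 rests on that constant.

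H2-Q6 is a close copy of H2-Q7 and also belongs to the Qa-2 genes. H2-Q6 (ENSMUSG00000073409.12, chromosome 17, 35424850 to 35430055, plus strand) had 1.62 and 1.66 TPM in MSH2KO21B and was listed at 0 in both MECPK libraries. The log2 difference was 1.40 with a pseudocount of 1 and 4.12 with 0.1, and no p is given for the same reason. Of the 31-base words in H2-Q7 transcripts, 23.5% also occur in H2-Q6 transcripts, and reads were shared out between such copies by estimation. The H2-Q6 and H2-Q7 values are therefore uncertain one by one. With all H2-Q genes summed as 1 family before the fit, the difference was 4.89 (limma adjusted p = 3.77e-05).

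H2-T23 and H2-T22 lie in the T region. H2-T23 encodes Qa-1, which presents leader peptides of other class I heavy chains to inhibitory NKG2A receptors on natural killer cells and some T cells. H2-T23 (ENSMUSG00000067212.8, chromosome 17, 36029773 to 36032855, minus strand) had 38.2 and 35.7 TPM in MSH2KO21B, against 2.98 and 2.97 TPM in MECPK. It averaged 36.9 ± 1.76 TPM in MSH2KO21B and 2.97 ± 0.009 TPM in MECPK (SD, n = 2 each), a ratio of 12.4. The MECPK replicates were almost equal, and the log2 difference was 3.25 (SE 0.07, 95% interval 3.06 to 3.45, limma adjusted p = 1.31e-05). Of all genes tested, 3.34% had a larger difference.

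H2-T22 encodes a class I molecule that binds no peptide and is recognised by some gamma delta T cells. H2-T22 (ENSMUSG00000056116.18, chromosome 17, 36037128 to 36042747, minus strand) had 40.5 and 34.6 TPM in MSH2KO21B, against 15.2 and 19.0 TPM in MECPK. Its means were 37.6 ± 4.14 TPM in MSH2KO21B and 17.1 ± 2.70 TPM in MECPK (SD, n = 2 each), a ratio of 2.20. Of the 6 heavy chain genes at 1 TPM or more in all 4 libraries it had the widest relative spread among MSH2KO21B replicates. The log2 difference was 1.10 (SE 0.14, 95% interval 0.73 to 1.46, limma adjusted p = 0.00179). In MSH2KO21B, H2-T22 and H2-T23 had means within their replicate spread of each other, while in MECPK H2-T22 was clearly the more abundant.

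H2-M3 presents peptides with an N-formyl group, as found in bacterial and mitochondrial proteins. H2-M3 (ENSMUSG00000016206.6, chromosome 17, 37270220 to 37274484, plus strand) had 5.92 and 6.10 TPM in MSH2KO21B, against 3.52 and 3.18 TPM in MECPK. It averaged 6.01 ± 0.13 TPM in MSH2KO21B and 3.35 ± 0.24 TPM in MECPK (SD, n = 2 each), a ratio of 1.79. Its log2 difference of 0.69 (SE 0.08, 95% interval 0.47 to 0.91, limma adjusted p = 0.00164) was the smallest of the 8, and 28.1% of all genes tested had a larger one. After quantile normalization it was 0.29 (limma adjusted p = 0.0366).

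**Figure D2:**
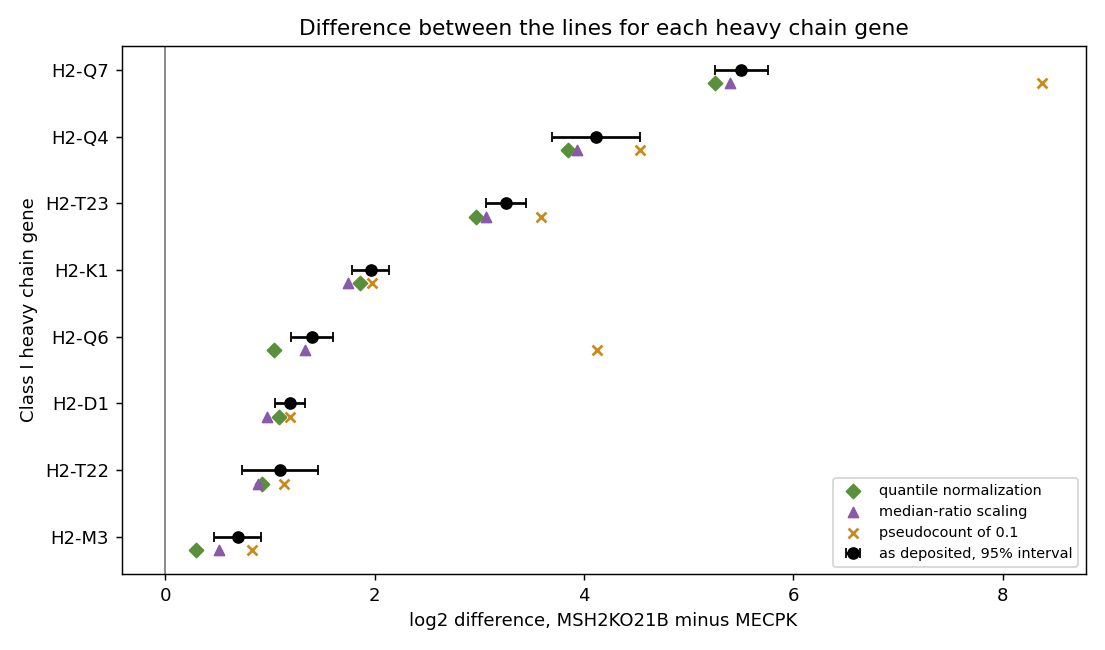
Log2 difference (MSH2KO21B minus MECPK) of each heavy chain gene with its 95% interval (black). Below it are the values under the other scalings (quantile, median-ratio) and with a pseudocount of 0.1 in place of 1. All 8 stay above 0 under each scaling, from H2-M3 at 0.69 to H2-Q7 at 5.50 as deposited.

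The order of the levels differed between the lines. In MSH2KO21B the mean TPM ran from H2-D1 and H2-K1 through H2-Q4 and H2-Q7 to H2-T22 and H2-T23, then H2-M3 and H2-Q6. In MECPK it ran from H2-D1 and H2-K1 to H2-T22, then H2-M3, H2-T23 and H2-Q4, which lay between 1.99 and 3.52 TPM, and last H2-Q7 and H2-Q6. Neighbours in these orders that did not differ beyond their replicate values were H2-T22 and H2-T23 in MSH2KO21B, H2-T23 and H2-Q4 in MECPK, and H2-Q7 and H2-Q6 in MECPK. When tested against a log2 fold change of 1 with limma's treat, H2-D1 (adjusted p = 0.0512), H2-T22 (adjusted p = 0.926) and H2-M3 (adjusted p = 1) were not called, while the other 5 were, H2-Q6 and H2-Q7 among them. By that test 12.7% of all genes tested were called higher.

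The make-up of the heavy chain RNA differed between the lines. Summed over the 8 genes it came to 1037 and 965 TPM in MSH2KO21B, against 322 and 314 TPM in MECPK, a ratio of means of 3.15. H2-K1 and H2-D1 together made up 81.1% and 81.4% of that sum in MSH2KO21B, against 92.6% and 91.0% in MECPK. The 3 Q genes made up 10.75% and 10.64% in MSH2KO21B, against 0.648% and 0.954% in MECPK. H2-T22 and H2-T23 held 7.59% and 7.28% in MSH2KO21B, against 5.64% and 7.0% in MECPK. Within the sum, the share of H2-K1 was 34.7% and 35.1% in MSH2KO21B, against 28.9% and 27.0% in MECPK, and that of H2-D1 was 46.4% and 46.4% in MSH2KO21B, against 63.7% and 64.0% in MECPK. The lines did not overlap in any of these shares. With 2 libraries against 2, an exact two-sided permutation test cannot go below p = 0.333, so no test of these sums and shares is given.

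**Figure D3:**
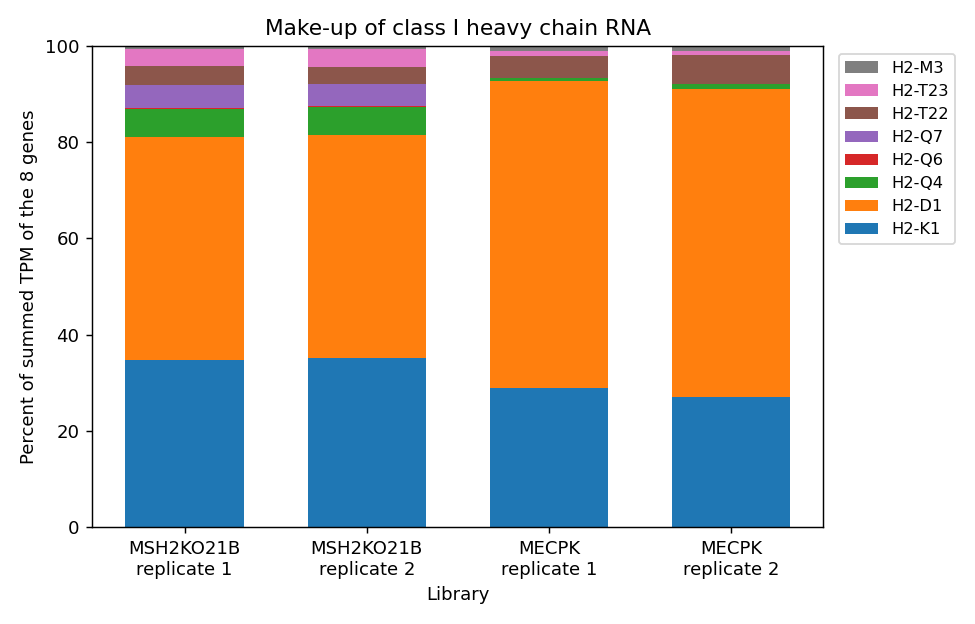
Share of each heavy chain gene in the summed TPM of the 8 genes (percent, stacked bars), with the 2 MSH2KO21B libraries on the left and the 2 MECPK libraries on the right. The Q genes hold 10.75% and 10.64% of the sum in MSH2KO21B, against 0.648% and 0.954% in MECPK.

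At the level of transcripts, the table listed 20 for these genes, and 16 had at least 1 TPM in at least 2 libraries. Of the 16, 15 were called higher in MSH2KO21B and 1 was not called, where 36.7% of all 23169 transcripts tested were called higher. The 3 tested H2-Q7 transcripts passed only through MSH2KO21B and so had to differ. H2-T22-202 and H2-T22-203 had equal values in every library, so the count of 15 is only a description. H2-K1-201 carried 90.8% and 90.1% of the H2-K1 TPM in MSH2KO21B, against 89.6% and 88.1% in MECPK. H2-D1-202 carried 85.0% and 86.4% of H2-D1 in MSH2KO21B, against 87.7% and 87.4% in MECPK. One main transcript thus carried each classical gene in both lines. In H2-Q7, H2-Q7-204 carried 69.2% and 62.8% in MSH2KO21B, with 33.6 and 28.0 TPM.

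The transcripts of H2-T22 differed between the lines by unequal amounts. H2-T22-201 had 8.87 and 8.45 TPM in MSH2KO21B, against 1.17 and 1.13 TPM in MECPK, a log2 difference of 2.17 (SE 0.09, limma adjusted p = 0.000735 over all transcripts). H2-T22-202 and H2-T22-203 were listed with equal values, each with 13.1 and 13.1 TPM in MSH2KO21B, against 7.01 and 6.88 TPM in MECPK, a difference of 0.83 (SE 0.06, limma adjusted p = 0.00199). H2-T22-205, annotated as a target of nonsense-mediated decay, had 5.53 and 0 TPM in MSH2KO21B, against 0 and 4.13 TPM in MECPK (limma adjusted p = 0.923). Without that transcript the gene's difference was 1.16 with an SE of 0.06, against an SE of 0.14 with it.

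The heavy chain genes are similar in sequence, which bears on how reads were assigned. The share of 31-base words found in no other gene of the table was 95.4% for H2-M3, 79.0% for H2-K1, 74.0% for H2-D1, 68.3% for H2-T23, 58.2% for H2-Q6, 56.4% for H2-Q4, 55.0% for H2-Q7 and 43.4% for H2-T22. H2-T22 shared 50.2% of its words with H2-T10, and H2-Q7 shared 26.4% with H2-Q5. H2-T10 was itself at 3.40 and 3.20 TPM in MSH2KO21B and listed at 0 in both MECPK libraries. With H2-T22 and H2-T10 summed before the fit, the difference was 1.21 (limma adjusted p = 0.0012). GRCm38 is the genome of the strain C57BL/6J, so for lines of unstated strain these levels are those of reads that matched the C57BL/6J alleles.

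B2m, the light chain that all 8 heavy chains are known or thought to pair with, had 2462 and 2600 TPM in MSH2KO21B, against 406 and 438 TPM in MECPK. Its log2 difference was 2.58 (SE 0.06, limma adjusted p = 1.52e-05). Per TPM of summed heavy chain, B2m came to 2.37 and 2.69 in MSH2KO21B, against 1.26 and 1.39 in MECPK, so B2m differed more than the heavy chain sum.

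Among the 14 genes listed for peptide supply and loading, all were tested and 11 were called higher in MSH2KO21B, where 46.6% of all genes tested were. The median difference was 1.07, against 0.19 over all genes. Psmb8 and Psmb9 passed the filter only through MSH2KO21B, which fixed their direction, so they add nothing to that count. Limma called 0 lower, 0 at an unadjusted p under 0.05 and 3 after quantile normalization, where 4577 of all 11921 genes tested were lower. Psmb8, a catalytic subunit of the immunoproteasome, had 33.5 and 33.1 TPM in MSH2KO21B and was listed at 0 in both MECPK libraries. Psmb9, another such subunit, had 16.4 and 16.3 TPM in MSH2KO21B, against 0.096 and 0.045 TPM in MECPK. Tap1, a chain of the peptide transporter, had 17.1 and 17.8 TPM in MSH2KO21B, against 1.30 and 1.10 TPM in MECPK, a difference of 3.07. Its partner chain gene is known as Tap2 and had 25.0 and 13.4 TPM in MSH2KO21B, against 2.09 and 0.36 TPM in MECPK.

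The Tap2 replicates were uneven, and its difference of 3.24 (SE 0.49, limma adjusted p = 0.00351) lay between 2.65 and 3.83 when each library was left out. Tapbp encodes tapasin, which holds empty heavy chains at the transporter, and had 50.4 and 47.6 TPM in MSH2KO21B, against 15.0 and 15.7 TPM in MECPK. The 3 genes not called were Psme1 (-0.30), Psmb10 (-0.13) and Psme2 (-0.02), which encode the PA28 activator and the third immunoproteasome subunit. All 3 were called lower after quantile normalization.

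Of 16 genes for transcription factors and coactivators of class I promoters, 8 were called higher in MSH2KO21B, 2 lower and 6 in neither direction, with a median of 0.46. Over all genes tested 46.6% were called higher and 29.7% lower, so the share called higher was near the background. Nlrc5, the class I coactivator, had 18.8 and 17.4 TPM in MSH2KO21B, against 0.018 and 0.017 TPM in MECPK, a difference of 4.23. It passed the filter only through MSH2KO21B and had to differ, so no p is given. Irf1, an IRF that binds the element printed above, had 18.4 and 21.6 TPM in MSH2KO21B, against 6.77 and 7.72 TPM in MECPK, a difference of 1.35.

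The other differences named as higher were 0.98 for Nfyc, an NF-Y subunit, 0.92 for the acetyltransferase gene Crebbp and 0.89 for Rfx5, whose product binds the X box. Rfxap, another RFX subunit, was higher by 0.64, and Nfkb1, an NF-kappa B subunit, by 0.63. The Nfyc call was lost without MSH2KO21B replicate 1 (limma adjusted p = 0.0648). Nfyb, another NF-Y subunit, was lower, with 28.9 and 32.0 TPM in MSH2KO21B, against 59.9 and 62.9 TPM in MECPK, a difference of -0.99. Rela, the partner NF-kappa B subunit, was also lower, with 53.8 and 53.4 TPM in MSH2KO21B, against 91.9 and 102.9 TPM in MECPK, a difference of -0.85. The number called lower was 4 after quantile normalization, where 4577 of all 11921 genes tested were called lower. Tested against a log2 fold change of 1, 2 of the 16 genes of this list were still called higher. By that test 12.7% of all genes tested were, so this count was near the background.

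**Figure D4:**
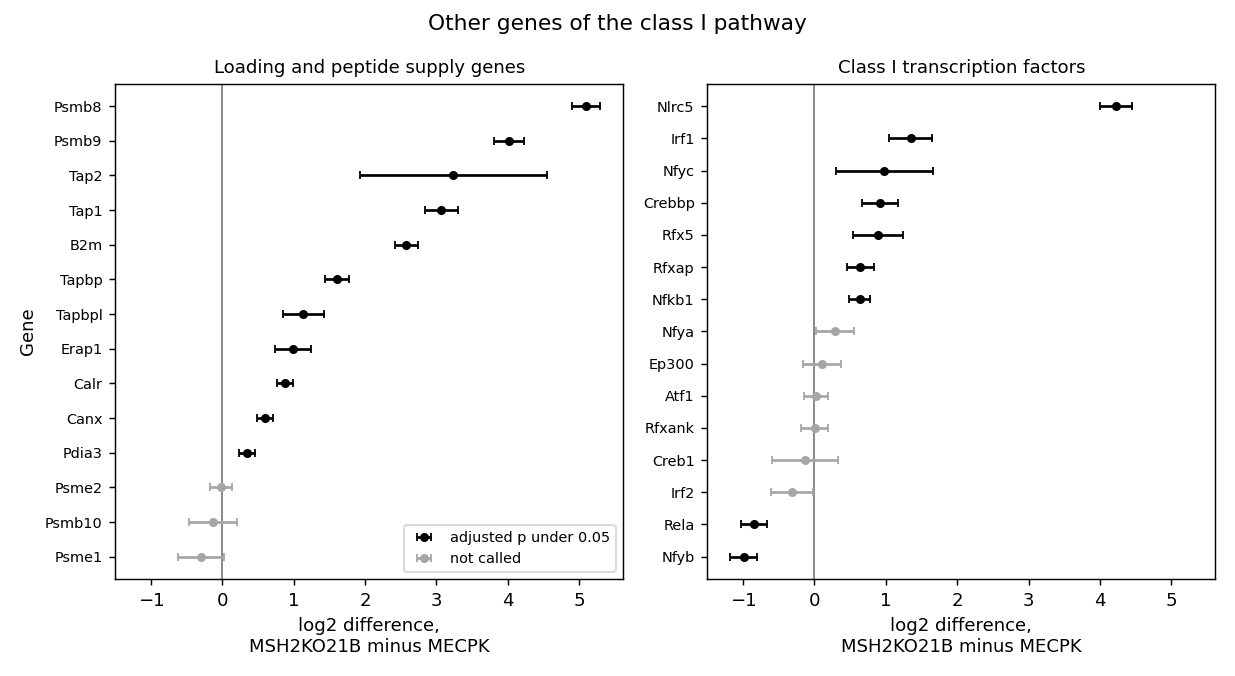
Log2 difference (MSH2KO21B minus MECPK) with 95% intervals for the 14 loading and peptide supply genes (left) and 15 of the 16 genes for class I transcription factors (right), black where the limma adjusted p was under 0.05. Psmb8 at 5.10 and Nlrc5 at 4.23 lie farthest to the right, and Nfyb at -0.99 farthest to the left.

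Most other class I and class I-like genes had very low levels in both lines. Of 30 listed, 27 were in the table and 3 (H2-Q8, H2-Q9 and H2-K2) were not analysed here. Of the 27, 23 were under 1 TPM in all 4 libraries and 4 were tested. H2-T10, given above, had a difference of 2.10. Mr1, which presents vitamin B metabolites to mucosal T cells, had 5.84 and 5.07 TPM in MSH2KO21B, against 1.15 and 0.052 TPM in MECPK (difference 2.10, limma adjusted p = 0.00516, and 0.0756 under treat). Hfe, a regulator of iron uptake, had 3.71 and 3.03 TPM in MSH2KO21B, against 0.079 and 0.049 TPM in MECPK (difference 2.03). H2-T10 and Hfe passed the filter only through MSH2KO21B. Procr, the endothelial protein C receptor, was lower, with 67.4 and 63.0 TPM in MSH2KO21B, against 251 and 242 TPM in MECPK (difference -1.90, limma adjusted p = 2.46e-05).

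The 8 genes lie in the H2 complex between 33996017 and 37274484 on chromosome 17, where GENCODE M21 annotates 302 genes. Of the other 86 tested genes of that stretch, 42 were called higher in MSH2KO21B (48.8%, against 46.6% of all genes tested) and 25 lower (29.1%, against 29.7%). Their median difference was 0.29, against 0.19 over all genes. Without MSH2KO21B replicate 2, 25 of 74 were called higher (33.8%, against 34.2% of all genes), and after quantile normalization 26 of 86 (30.2%, against 35.6%). Of those 86 genes, 5 were on the lists above (Psmb9, Tap1, Psmb8, Tap2 and H2-T10). All 5 were called higher, but Psmb8, Psmb9 and H2-T10 passed the filter only through MSH2KO21B, which fixed their direction. The other 81 had 37 higher (45.7%) and 25 lower (30.9%), with a median of 0.22. Neighbours of the heavy chain genes were thus called in each direction at about the share seen across the genome.

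**Figure D5:**
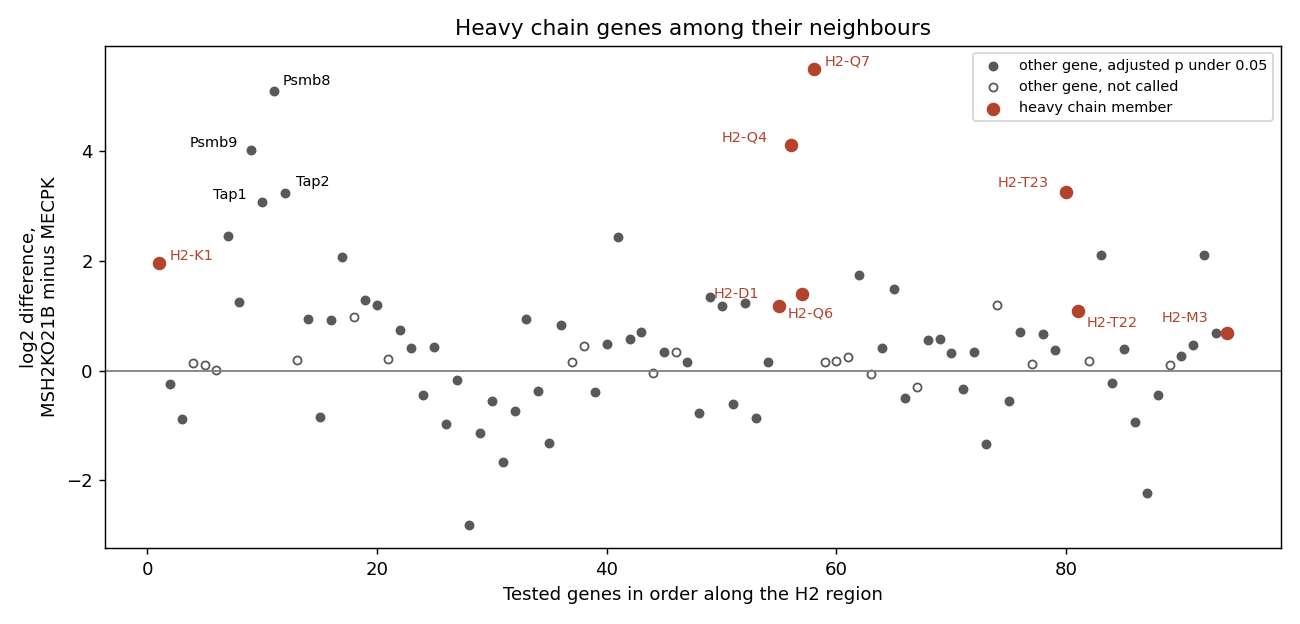
Log2 difference (MSH2KO21B minus MECPK) of the tested genes of the H2 region in chromosomal order, with heavy chain genes in red, other called genes filled and genes not called open. H2-Q7, H2-Q4 and H2-T23 stand above most neighbours, and the 4 labelled genes at the left encode immunoproteasome and peptide transporter chains.

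The 5 genes outside the 8 with the profile most like the median heavy chain profile, by Euclidean distance over the 4 libraries on centred log2 values, were Trim47, Lrrc8e, Hsdl2, Itga2b and Klk8. Their distances were 0.025 to 0.042. Over 4 libraries of 2 lines, such likeness mostly records a similar difference between the lines.

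Cell type markers also differed between the lines, and the labelled cell type was checked against them. The 5 epithelial markers (Epcam, Cdh1, Krt8, Krt18 and Krt19) were all present and summed to 339 and 328 TPM in MSH2KO21B, against 3985 and 4033 TPM in MECPK. Cdh1 went against that sum, with 167 and 165 TPM in MSH2KO21B, against 100.3 and 99.5 TPM in MECPK. The 5 endometrial and Müllerian markers summed to 8.04 and 8.46 TPM in MSH2KO21B, against 69.0 and 72.6 TPM in MECPK, and Pgr was listed at 0 in all 4 libraries. Of the 4 tested, 3 were called lower and 1 went against the sum and was called higher. The 4 basal or squamous markers (Krt5, Krt14, Krt17 and Trp63) summed to 10733 and 10584 TPM in MSH2KO21B, against 3.91 and 3.46 TPM in MECPK. In MSH2KO21B the basal or squamous sum was far above the endometrial and Müllerian sum, so these markers by themselves do not bear out its labelled cell type. In MECPK the endometrial and Müllerian sum was the larger of the pair. The part of the difference in epithelial state between the lines in the heavy chain values was not tested.

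Leukocytes are rich in class I RNA, and their 10 markers summed to 3.83 and 3.79 TPM in MSH2KO21B, against 0.950 and 1.03 TPM in MECPK. Only Csf1r of the 10 reached 1 TPM in any library, and Cd3e and Ncr1 were listed at 0 in all 4. The 6 fibroblast markers summed to 1.02 and 0.637 TPM in MSH2KO21B, against 0.505 and 0.601 TPM in MECPK, and none reached 1 TPM. The 4 endothelial markers summed to 2.78 and 1.83 TPM in MSH2KO21B, against 0.072 and 0.034 TPM in MECPK, with Pecam1 and Cdh5 reaching 1 TPM and Kdr listed at 0 in all 4.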

How the data were processed

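Total RNA of 4 libraries of 2 cell lines was extracted with a column kit, per the labels' protocols. The deposited table holds TPM values that the authors made with kallisto 0.43.1 on GRCm38, per the submitters' processing notes. No source used here gives the transcript set, read length, strand setting or depth. Of 61440 transcripts, 60503 matched GENCODE M21 without version, and TPM was summed per gene (22594 genes). The 937 unmatched transcripts held 0.733% to 0.944% of TPM.

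Libraries were grouped by title. Genes that reached 1 TPM in 2 or more libraries entered a limma 3.58.1 fit (R 4.3.3) of log2(TPM + 1) that used a mean-variance trend and had line as its only term, with Benjamini-Hochberg adjustment at 0.05. This scale understates differences of low genes. The fit had 2 residual and 2.49 prior degrees of freedom, and the script was tested on simulated data. Replicate values were not copies: 1 of 30991 transcripts was equal in both MSH2KO21B libraries and 0 of 28999 in both MECPK libraries.

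The 8 genes, the lists, the motifs and the marker genes were chosen with earlier results of these data known. The text names the 8 genes, up to 6 genes per list and direction with the largest called differences, Rfxap, Nfkb1 and the 3 loading genes not called, all named after their values were seen, and the 5 genes nearest in pattern. Words of 31 bases were compared between GENCODE M21 sequences of the table's transcripts. Promoters came from RefSeq (GRCm38.p6). A check of the gene in the line name and some genes that these rules take are not reported here.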

Additional observations from a re-analysis of the deposited data

How the results depend on the processing

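Settings varied were the trend, the scaling, the filter, the pseudocount, a replicate block, leaving out each library, treat, protein-coding transcripts only and, chosen after seeing the data, leaving out transcript H2-T22-205 and summing H2-T22 with H2-T10. The 8 heavy chain genes were higher in MSH2KO21B wherever a setting tested them, and 8 were called except under a filter of 10 TPM (6 of 6 tested), under treat (5) and with a library left out (6 to 8), since H2-Q6 and H2-Q7 miss the filter without either MSH2KO21B library. Under treat, 2443 of 11921 genes were called in all, against 9088 in the main fit, and 12.7% were called higher. Under it 6 of 14 loading genes, 2 of 16 transcription factors and 13 of 86 region genes (15.1%) were higher. Called lower were 0 transcription factors and 5 region genes. After quantile normalization 3 loading genes and 4 transcription factors were lower, where 4577 of all 11921 genes tested were. Of 86 region genes, 26 were higher after it (30.2%, against 35.6% of all). After median-ratio scaling 2 loading genes and 4 transcription factors were lower, where 4565 of all 11899 genes tested were. Without a filter 8 other class I genes were higher and 2 lower, where 37.2% of all genes tested were higher. With a filter of 10 TPM limma called 0 other class I genes higher, where Procr alone was left to test. That filter left 55 region genes, of which 24 were higher (43.6%, against 46.2% of all). Leaving out libraries gave 0 to 2 loading genes lower, 1 to 3 other class I genes higher and 25 to 42 region genes higher. Psmb10, at -0.13, ranged from -0.29 to 0.021 over these, and Psme2, at -0.02, was 0.011 when rescaled without mitochondrially encoded genes. Unless the construction shows it, the cause was not tested. Of the alternatives for single genes and sums, 427 kept direction and side of the threshold, 13 lost the call, 8 gained one and 2 changed sign. TPM gives no depth, so no limit by depth can be stated.

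With the replicate number as a block, 8 heavy chain genes and 9113 genes in all were called. The block had 1 loading gene (Psme1) called lower and 9 transcription factors higher, where 46.8% of all genes tested were higher. It changed no other call of a gene named here. The deviations of same-numbered libraries correlated at 0.0161, so the numbers were not taken to pair samples.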
